A study of Mus musculus with 474 samples.

Results

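Cwc22, a splicing factor gene of chromosome 2, stood at 1 of 2 widely separated levels in the skeletal muscle of these mice, and 4 genes far away from it (Il1f9, Gm42764, Gm42900 and Gm19757, called followers here) were high in the same animals. These 5 genes, of 20612 genes deposited, were chosen on measured values of these same libraries, namely the gap of Cwc22 between animals and the correlation of the others with it. Their gaps, their counts of high animals and their correlations with Cwc22 are therefore given as descriptions, with no test. All 5 passed the filter on low counts, which left 18823 genes for testing. The lowest correlation of a follower with Cwc22 was 0.82, and the highest of a gene outside the 5 was 0.64 (Gm15983).

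The libraries came from Diversity Outbred (DO) mice, an outbred stock bred from 8 inbred founder strains, so that each animal carried its own mixture of founder alleles. All animals had the same high-fat, high-sugar diet, labelled as 45% fat, and no other diet, strain or treatment was included. The muscle is named gastrocnemius in the methods of the study, and 1 library was made per animal. A number in each label was read as the outbred generation. The labels do not name it, and the study names only some of its values as generations, so generation stands here for that number by assumption. The 5 numbers, with females and males of each, were 17 (48 and 46 animals), 18 (45 and 48), 19 (49 and 50), 21 (46 and 47) and 23 (47 and 48). Founder genotypes and the ages of single animals were not analysed here. Total counts, in mega-counts (M), ran from 35.9 to 165.7 M with a median of 79.3 M, and 5 libraries had Xist or Ddx3y RNA that went against the sex in their label. All 10 myofibre markers (Acta1, Ckm and others) were expressed.

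Cwc22 protein joins the spliceosome and brings Eif4a3 to the RNA, where the exon junction complex is laid down upstream of each new splice junction. In mice the gene is also known for lying in a segment of chromosome 2 (R2d) that differs in copy number between strains, with extra copies at a second site of the same chromosome (R2d2) in some founders of the DO stock, and females that carry the multi-copy form can pass it on to more than their share of offspring. Il1f9 (also Il36g) encodes interleukin-36 gamma, a cytokine of the interleukin-1 family made mainly by epithelia. The other 3 are predicted genes with no known function.

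Cwc22 (ENSMUSG00000027014) lies on the minus strand of chromosome 2 between 77881159 and 77946375 (GRCm38), with 13 transcripts and 6822 exon bases. Il1f9 (ENSMUSG00000044103) lies on the plus strand of the same chromosome between 24186476 and 24193568, 53.7 Mb from Cwc22, with 5 exons and 1648 exon bases. Gm42764 (ENSMUSG00000106173, chromosome 5, 30759032 to 30760477, plus strand) is a sense-intronic RNA of 741 exon bases inside Dpysl5. Gm42900 (ENSMUSG00000106671, chromosome 5, 107254338 to 107256504, minus strand) is a single exon of 2167 bases inside Tgfbr3, annotated as still to be verified. Gm19757 (ENSMUSG00000108237, chromosome 6, 105481266 to 105492668, minus strand) is a long intergenic RNA of 3 exons and 2946 exon bases. Gm42764 and Gm42900 lie on the strand of the gene around them, so their reads cannot be told apart from unspliced reads of that gene.

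RefSeq (GRCm38.p6) gives a gene start for 3 of the 5 genes. The 250 bases upstream of that start are shown because these genes were high together. The RefSeq start of Cwc22 lies inside the GENCODE gene given above, so the 3′ end of its window, with part of the third marked motif, is within that gene. Capitals mark 2 motifs that were searched for on both strands, ACTACAA (reverse TTGTAGT, the start of a ZNF143 type site) and CCAAT, both chosen after the sequences were seen.
Cwc22, chr2:77946357-77946606, minus strand: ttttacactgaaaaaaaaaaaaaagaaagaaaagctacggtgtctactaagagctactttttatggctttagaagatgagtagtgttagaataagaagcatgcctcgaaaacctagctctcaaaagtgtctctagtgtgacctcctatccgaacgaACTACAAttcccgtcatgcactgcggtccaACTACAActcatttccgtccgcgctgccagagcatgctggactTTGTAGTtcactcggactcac
Il1f9, chr2:24186226-24186475, plus strand: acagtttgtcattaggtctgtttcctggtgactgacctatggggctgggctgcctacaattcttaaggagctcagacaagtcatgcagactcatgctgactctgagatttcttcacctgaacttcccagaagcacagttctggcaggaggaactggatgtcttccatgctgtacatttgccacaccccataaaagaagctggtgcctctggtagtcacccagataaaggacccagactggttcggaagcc
Gm19757, chr6:105492669-105492918, minus strand: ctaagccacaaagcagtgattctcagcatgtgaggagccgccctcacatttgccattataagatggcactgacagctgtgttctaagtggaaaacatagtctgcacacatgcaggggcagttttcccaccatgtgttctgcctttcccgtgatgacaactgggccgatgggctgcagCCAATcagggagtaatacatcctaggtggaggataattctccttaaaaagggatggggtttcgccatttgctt
The window of Cwc22 held ACTACAA 3 times, at positions 157, 187 and 230 counted from its 5′ end, and 2.81% of all 32851 windows of the table held it at least once. CCAAT was found once, in the window of Gm19757, and 33.8% of all windows held it. TATAAA was in none of the 3 windows and in 12.4% of all. The windows of Cwc22 and Il1f9 shared no 31-base word with any other window, and that of Gm19757 shared one with 11 windows.

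The transcripts of the followers held stretches of sequence that occur elsewhere, and the stretches below are shown because genes that carry them come up again among the genes most like Cwc22. Transcript positions are from GENCODE M21.
Gm42764, 124 bases from position 165, exactly as in Gm44873 on the opposite strand: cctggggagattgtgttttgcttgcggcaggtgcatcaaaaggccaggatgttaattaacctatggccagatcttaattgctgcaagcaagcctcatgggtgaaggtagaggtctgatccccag
Gm42900, positions 956 to 1123, exactly as in Gm44873 on the opposite strand: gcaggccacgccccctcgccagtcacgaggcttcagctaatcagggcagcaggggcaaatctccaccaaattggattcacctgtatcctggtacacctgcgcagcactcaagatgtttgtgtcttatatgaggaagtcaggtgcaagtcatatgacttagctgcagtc
Gm19757, positions 56 to 113, exactly as in Gm15983 on the opposite strand: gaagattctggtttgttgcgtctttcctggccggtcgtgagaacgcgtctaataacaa
Of the 31-base words of each gene, 74.5% were also in another annotated gene for Gm42764, 35.4% for Gm42900, 25.03% for Cwc22, 12.96% for Il1f9 and 8.59% for Gm19757, where the median gene had 2.22%. Il1f9 and Gm19757 shared 55 bases exactly (1594 to 1648 of Il1f9, 1 to 55 of Gm19757), and Il1f9 shared 150 bases with the opposite strand of Gm15983. Cwc22 had no such stretch in common with a follower. The longest exact runs between Cwc22 and a follower were 11 to 14 bases.

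Cwc22 sequence itself recurred on chromosome 2. GENCODE M21 places 7 predicted protein-coding genes (Gm13698, Gm13693, Gm13695, Gm13696, Gm13694, Gm13697 and Gm13691) between 83955693 and 83993045, 6.07 to 6.11 Mb from the start of Cwc22. Each has a transcript of 2493 bases with 96.9% identity to Cwc22 over 2514 aligned positions, which cover a Cwc22 transcript from the first base of its coding part to position 2885, where the coding part ends at position 3114. These 7 genes are not among the genes of the count table and were not analysed here, so the values of Cwc22 may include reads that also match them. Expected counts of Cwc22 were whole numbers (to 1e-06) in 30.4% of libraries, and those of the followers in at most 0.633%, where the median gene was whole in 100% of libraries.

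Levels are given as CPM, counts per M of the library total after scaling by the trimmed mean of M-values (TMM). For each gene, animals were ordered by log2 CPM (prior count 2), and the gap is the widest step between neighbours that left at least 5% of libraries (24) on each side. In Cwc22 the gap lay between 25.7 and 157 CPM, 2.61 on the log2 scale, where the median gap of all genes was 0.031. Animals below it ran from 8.26 to 25.7 CPM (median 11.3, mean 11.6 ± 1.71 SD), and the 35 above it (7.38% of all) from 157 to 438.5 CPM (median 354.9, mean 340.5 ± 74.3 SD). The medians differed 31.4-fold, and no animal lay in between. The gap ranked 45 among those of 18823 genes.

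Il1f9 ran from 0 to 1.55 CPM below its own gap (median 0.259) and from 3.23 to 8.70 CPM above it (median 6.51, mean 6.30 ± 1.32 SD), a 25.2-fold difference of medians. Gm42764 ran from 0.0982 to 3.22 CPM below (median 0.858) and from 5.54 to 15.5 CPM above (median 7.93, mean 8.41 ± 2.01 SD), a ratio of 9.25. Gm42900 ran from 0.625 to 4.13 CPM below (median 1.80) and from 7.80 to 17.3 CPM above (median 12.9, mean 12.9 ± 2.58 SD), a ratio of 7.16. All 3 genes, like Cwc22, had 35 animals above the gap. Gm19757 had 33 above, from 1.97 to 6.32 CPM (median 3.603, mean 3.84 ± 0.999 SD), and the others lay below, from 0 to 1.30 CPM (median 0.157), a ratio of 23.02. Its counts were the lowest of the 5, with a median of 12.5 counts in the animals low in Cwc22 and 274.6 in those high in it, beside 925 and 27477 counts for Cwc22. Sampling error is thus largest for Gm19757 and Il1f9 in the low animals.

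**Figure D1:**
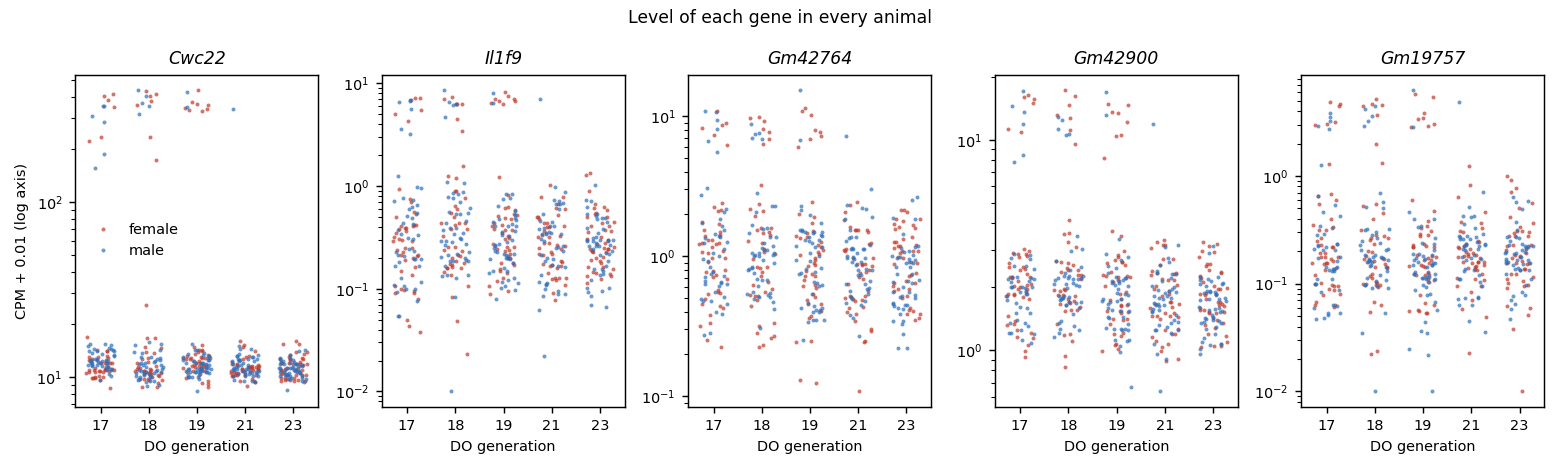
Level of each of the 5 genes in every animal, in CPM plus 0.01 on a log axis, against the DO generation (17 to 23), with females in red and males in blue and points spread sideways within a generation. In each panel a separate upper group is seen in generations 17, 18 and 19, with 1 animal in generation 21 and none in generation 23.

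The same 35 animals were above the gap in Cwc22, Il1f9, Gm42764 and Gm42900. In 33 of them Gm19757 was above its gap too, and the 33 were all of its high animals. The remaining 2, DO152 and DO076, were the lowest of the 35 in Cwc22 (174 and 157 CPM) and lay just below the gap in Gm19757 (1.30 and 1.27 CPM), where the highest of all other animals below it had 1.29 CPM. All other animals were above the gap in none of the 5 genes. Total counts were alike in both sets, with 57.9 to 106.6 M (median 78.2 M) in the 35 and 35.9 to 165.7 M (median 79.3 M) in the others. None of the 5 libraries at odds with their sex label was among the 35. Fewer cells of a type and less RNA per cell cannot be told apart in such bulk samples.

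Compared per kilobase of exon in the animals above each gene's own gap (33 for Gm19757 and 35 for the others), the order was Cwc22 (median 52.0 CPM per kb, range 23.02 to 64.3), Gm42764 (10.7, 7.47 to 20.9), Gm42900 (5.95, 3.602 to 7.997), Il1f9 (3.95, 1.959 to 5.28) and Gm19757 (1.22, 0.668 to 2.14). Cwc22 stood apart from all 4 followers, whereas the ranges of Gm42764 and Gm42900, of Gm42900 and Il1f9, and of Il1f9 and Gm19757 overlapped. Below the gap the medians had the same order, 1.66, 1.16, 0.831, 0.157 and 0.0531 CPM per kb. There the ranges of all neighbours overlapped.

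Within the 35, Cwc22 had a further step, of 49.4 CPM, between 6 animals at 157 to 236.2 CPM (DO076, DO152, DO082, DO021, DO124 and DO033) and 29 at 285.7 to 438.5 CPM. Both groups were read off the values of Cwc22, and the following values are descriptions. Il1f9 had a median of 3.96 CPM (3.23 to 5.06) in the 6 and 6.71 CPM (4.74 to 8.70) in the 29. The medians were 6.73 and 8.14 CPM for Gm42764, 10.2 and 13.4 CPM for Gm42900, and 2.45 and 3.801 CPM for Gm19757. In all 4 followers the median was lower in the 6, and the ranges of both groups overlapped. The highest values of Cwc22 were 438.5 CPM (DO237) and 434.5 CPM (DO185), and the highest values of Gm42764 (15.5 CPM) and Gm19757 (6.32 CPM) were both in DO319, which had 424.8 CPM of Cwc22. On the low side DO168 (25.7 CPM) and DO051 (16.9 CPM) were the highest in Cwc22. DO168 was low in all 4 followers, with 0.191 CPM of Il1f9, 0.213 of Gm42764, 0.931 of Gm42900 and 0.112 of Gm19757.

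The size of the rise of each follower was set against that of Cwc22 in the same animal, each taken as the CPM above the median of the animals below the gap. The excess of Il1f9 was 1.45 to 2.31% of the excess of Cwc22 (median 1.85%, coefficient of variation 11.8% over 35 animals). It was 1.55 to 3.95% for Gm42764 (median 2.18%), 1.92 to 4.72% for Gm42900 (median 3.57%) and 0.655 to 1.76% for Gm19757 (median 1.06%). The coefficients of variation of these 3 were 27.4, 20.4 and 27.2%. Of the 4, Il1f9 thus kept the narrowest ratio to Cwc22. All 4 together came to 6.11 to 11.5% of the excess of Cwc22 (median 8.61%).

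**Figure D2:**
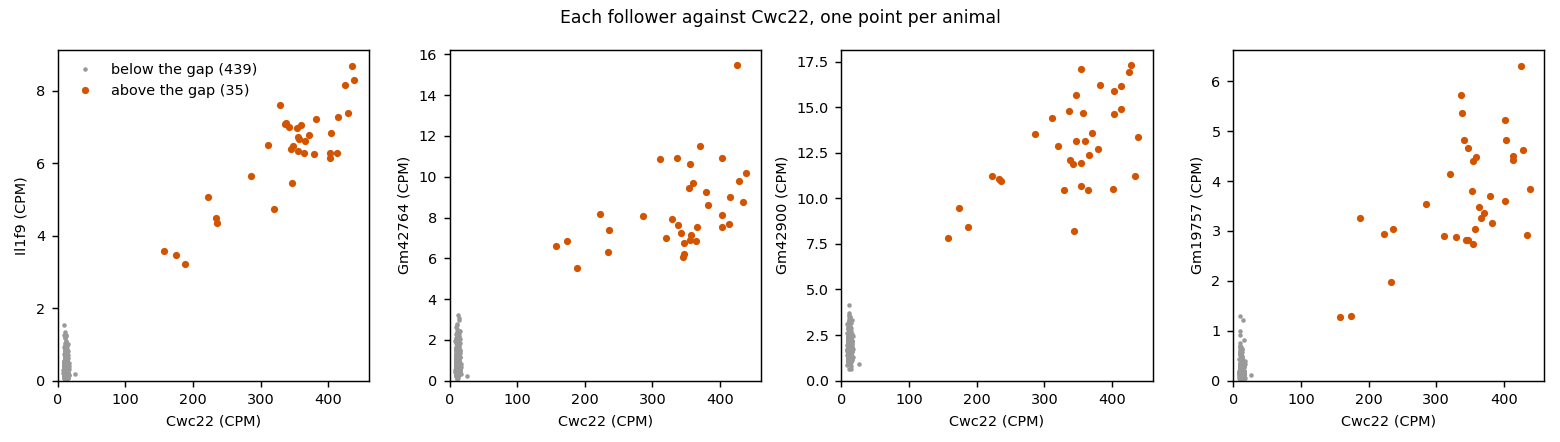
Level of each follower against that of Cwc22, both in CPM on linear axes, with 1 point per animal, grey for animals below the gap of Cwc22 and orange for the 35 above it. The orange points rise with Cwc22 between 157 and 438.5 CPM, most narrowly for Il1f9, and the grey points spread over each follower's low range at nearly 1 value of Cwc22.

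Correlation was measured with Pearson's r on the deposited score (a variance stabilising transform, close to log2) after sex and generation were removed. Over all animals r with Cwc22 was 0.90 for Il1f9, 0.82 for Gm42764, 0.89 for Gm42900 and 0.90 for Gm19757, where the median of all genes was 0.000877. These pooled values join 2 separate clusters of animals, and each cluster was therefore taken alone. Within the 35 high animals r was 0.91, 0.54, 0.72 and 0.69 in the same order, and without the 2 animals farthest from the median of Cwc22 it was 0.86, 0.55, 0.64 and 0.44 (n = 33). Within the low animals it was 0.03, -0.00496, 0.0081 and 0.0165. The followers moved with Cwc22 among the high animals, in Il1f9 most of all. In the low animals the SD of Cwc22 was 1.71 CPM, and those of the followers were 0.246, 0.570, 0.594 and 0.162 CPM in the same order. At the excess ratios given above, so small a spread of Cwc22 would shift the followers by little beside their own spread. An r near 0 in the low animals therefore cannot show whether the followers moved with Cwc22 there.

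Among themselves the followers correlated in the low animals as well, in some pairs only. There r was 0.47 between Gm42764 and Gm42900, 0.40 between Il1f9 and Gm42900, 0.31 between Il1f9 and Gm19757, 0.18 between Gm42900 and Gm19757, 0.10 between Gm42764 and Gm19757 and 0.05 between Il1f9 and Gm42764. Gm42764 and Gm42900 each share a stretch with Gm44873, and Il1f9 and Gm19757 share 55 bases with each other. Il1f9 and Gm42900 (r = 0.40) share no run over 11 bases with each other, and each shares a run with Gm15983 (150 and 35 bases). Gm42900 and Gm19757 (r = 0.18) share 35 bases. The part of shared reads in these correlations was not tested. Across the 10 pairs r was 0.80 to 0.94 in generation 17, 0.82 to 0.93 in generation 18 and 0.85 to 0.95 in generation 19. With 1 high animal it was 0.41 to 0.73 in generation 21, and with none it was -0.15 to 0.42 in generation 23.

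**Figure D3:**
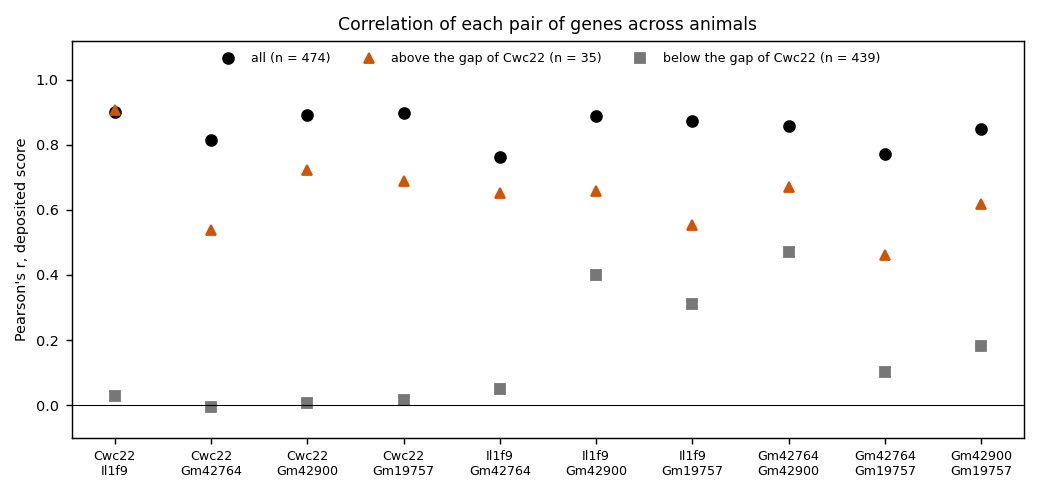
Pearson's r of each pair of the 5 genes on the deposited score after sex and generation, over all animals (black circles), the 35 above the gap of Cwc22 (orange triangles) and those below it (grey squares). The 4 pairs with Cwc22 are near 0 in the grey squares, and the pairs of followers reach 0.47 there.

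High animals were unequally spread over generations. Above the gap of Cwc22 were 12 of 94 animals in generation 17, 12 of 93 in generation 18, 10 of 99 in generation 19, 1 of 93 in generation 21 (the male DO391) and 0 of 95 in generation 23, which allows a share of up to 3.16%. Generations 17 to 19 thus held 34 of the 35. DO391 had 341.8 CPM of Cwc22, 6.99 of Il1f9, 7.23 of Gm42764, 11.9 of Gm42900 and 4.81 of Gm19757, inside the ranges of the earlier high animals. The low animals hardly differed, with medians of Cwc22 of 11.96, 10.9, 11.7, 11.2 and 11.2 CPM in the 5 generations.

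**Figure D4:**
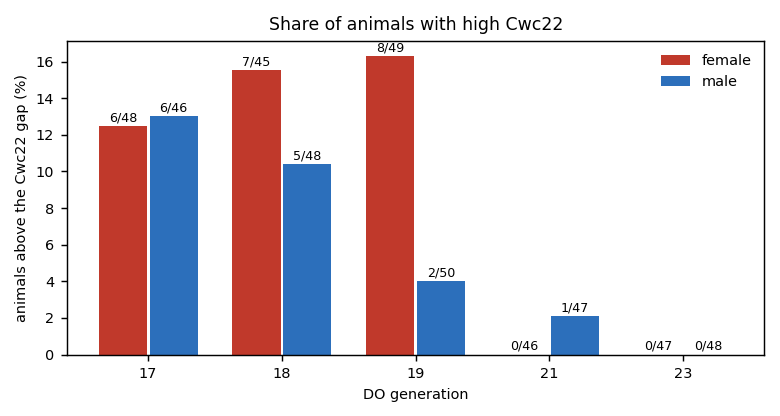
Share of animals above the gap of Cwc22, in percent, for females (red) and males (blue) of each DO generation, with the counts over the bars. The share lies between 4 and 16.3% in both sexes of generations 17 to 19, and between 0 and 2.13% in generations 21 and 23.

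The generation difference was fitted on the counts of all genes with sex as covariate. In edgeR all 5 genes were called, beside 7.56% of all genes tested. Gm19757 was not called with limma on the deposited score, a variance-stabilised value on a log2-like scale, and Gm42764 was not called within the first 96 library numbers. Within 5 stretches of consecutive library numbers, chosen after seeing the data, Cwc22 was called in 5, Il1f9 and Gm42900 in 3, and Gm42764 and Gm19757 in 2. The counts of high animals by generation were known when the genes were chosen, and the 5 genes share their high animals, so these calls restate those counts and are given as a description, with no p-value. The range between the highest and lowest fitted generation was 2.29 (log2) for Cwc22, 1.81 for Il1f9, 1.11 for Gm42764, 0.93 for Gm42900 and 1.54 for Gm19757, where the median gene had 0.112. On the deposited score these ranges were smaller, at 0.64, 0.34, 0.32, 0.36 and 0.20 in the same order. Relative to generation 17, mean Cwc22 differed by 0.18, -0.10, -1.68 and -2.12 (log2) in generations 18, 19, 21 and 23. Mean levels were 49.5 ± 102.6, 56.0 ± 119.2, 47.5 ± 107.6, 15.01 ± 34.3 and 11.3 ± 1.44 CPM (SD) in the 5 generations, and medians were 12.2, 11.1, 11.9, 11.2 and 11.2 CPM. The means thus moved with the number of high animals, and the medians varied little.

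Sex differences were smaller. Above the gap of Cwc22 were 21 females (8.94%) and 14 males (5.86%). Male minus female, Cwc22 differed by -0.25 ± 0.16 (log2, SE; adjusted p = 0.18), Il1f9 by -0.26 ± 0.16 (adjusted p = 0.166) and Gm42764 by -0.19 ± 0.12 (adjusted p = 0.18), in edgeR with generation as covariate. Gm42900 (-0.26 ± 0.09, adjusted p = 0.00937) and Gm19757 (-0.38 ± 0.17, adjusted p = 0.042) were lower in males, and the call of Gm19757 was lost with limma on the deposited score (-0.09, adjusted p = 0.103). Of all genes 55% passed this test and 30.6% did so with lower levels in males, so 2 of 5 is near the background. Median levels of Cwc22 were 11.4 CPM in females (8.64 to 438.5) and 11.6 CPM in males (8.26 to 434.5), and the ranges overlapped nearly in full. Of 9 adipocyte markers 8 were also lower in males, such as Cfd, which encodes adipsin (-1.24, adjusted p = 8.5e-30), and Retn, which encodes resistin (-1.06, adjusted p = 6.5e-25), and Lep, which encodes leptin, was higher (0.55, adjusted p = 0.000111). Their part in the sex differences of the 5 genes was not tested. In the other marker lists the counts higher and lower in males were 5 and 3 of 10 (myofibre), 0 and 2 of 10 (macrophage), 0 and 1 of 5 (Schwann cell), 3 and 0 of 5 (erythroid) and 0 in the keratinocyte and neutrophil lists.

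Sex was also compared within single generations. In generation 19, with 8 high females of 49 and 2 high males of 50, males were lower in Cwc22 (-1.37 ± 0.40, adjusted p = 0.00678), Il1f9 (-1.28 ± 0.39, adjusted p = 0.01), Gm19757 (-1.27 ± 0.41, adjusted p = 0.0158) and Gm42900 (-0.66 ± 0.22, adjusted p = 0.0222) by edgeR, beside 11.7% of all genes tested in that generation. Gm42764 differed by -0.64 ± 0.30 (adjusted p = 0.114). No fit without the high animals was made, and median levels in females and males were 12.6 and 11.2 CPM in Cwc22, 0.340 and 0.252 CPM in Il1f9, 0.170 and 0.125 CPM in Gm19757, 2.15 and 1.72 CPM in Gm42900 and 0.961 CPM in both sexes in Gm42764. In generation 21 Cwc22 was higher in males (0.72 ± 0.19, adjusted p = 0.00264), as were 13.6% of all genes, and the followers differed by 0.09 (Gm42900) to 0.55 (Il1f9) with adjusted p from 0.118 to 0.651. Without DO391 the difference in Cwc22 was 0.04 ± 0.04 (adjusted p = 0.467), so it rested on that library. Generations 17 (6 of 48 females, 6 of 46 males), 18 (7 of 45, 5 of 48) and 23 gave adjusted p from 0.094 to 0.98 for the 5 genes, and there 24.7, 25.6 and 27.5% of all genes passed. In generation 23, which had no high animal, Gm42764 differed by -0.36 ± 0.16 (unadjusted p = 0.0313, adjusted p = 0.094) and Gm42900 by -0.18 ± 0.09 (unadjusted p = 0.0361, adjusted p = 0.105). The sex-by-generation interaction itself was not called in any of the 5 genes (adjusted p = 0.122 for Cwc22 and 0.443 to 0.935 for the followers, with unadjusted p under 0.05 in Cwc22, Il1f9 and Gm19757), beside 0.531% of all genes.

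Library numbers fell into 2 runs, the first of 96 libraries and the second of all others. High animals were 5 (5.21%) in the first and 30 (7.94%) in the second. None of the 5 genes differed between runs (adjusted p 0.134 to 0.448 by edgeR, lowest unadjusted p = 0.0723 in Gm42764), and 45.4% of all genes did. The range of Cwc22 between generations was 2.77 (log2) in the first run and 2.36 in the second, again as a description. Taken alone, the first run gave a sex difference of -0.49 ± 0.16 in Gm42900 (adjusted p = 0.0186) and -0.82 ± 0.30 in Gm19757 (adjusted p = 0.0382), and the second gave -0.20 ± 0.10 (adjusted p = 0.0968) and -0.24 ± 0.19 (adjusted p = 0.311). Of all genes 10.3% and 29.1% were lower in males in these runs. Neither sex difference passed the test within the larger run. Among 5 stretches of consecutive library numbers, chosen after seeing the data, sex differences in 1 stretch of 95 libraries were above 0 in all 5 genes (0.17 to 0.74, adjusted p from 0.164 to 0.633). Pairs with Cwc22 kept r from 0.77 to 0.86 in the first run.

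Of the 18818 other genes tested, 13 (0.0691%) had an absolute r with Cwc22 of at least 0.2. On chromosome 2 these were 5 of 1463 genes, and all 5 lay within 7.16 Mb of Cwc22. Tfpi, the tissue factor pathway inhibitor of blood clotting, had r = 0.60 at 6.55 Mb, with a median of 3.10 CPM (1.45 to 6.34) in low and 6.23 CPM (3.50 to 9.31) in high animals. Its start lies 0.442 Mb past the last of the 7 copies of Cwc22 sequence. Nckap1, a subunit of the WAVE complex that drives actin branching, had r = 0.35 at 2.62 Mb (medians 70.3 and 85.7 CPM), and Ssrp1, a subunit of the histone chaperone FACT, had r = 0.34 at 7.16 Mb (27.8 and 30.7 CPM). The levels of all 3 overlapped between high and low animals. Nup35 (0.21, 2.74 Mb) and E030042O20Rik (0.26, at -2.18 Mb) completed the 5. Nckap1 also correlated with Cwc22 within the low animals (r = 0.36), and Tfpi did not (0.02).

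The nearest tested genes of Cwc22 all had an absolute r under 0.2 with it. Ccdc141, Sestd1, Gm13943, Zfp385b and Ube2e3 start within 1 Mb and had r of -0.14, -0.04, 0.196, -0.05 and -0.03, so Gm13943 lay just under that threshold. Around the followers the largest values were smaller. The 21 genes within 1 Mb of Il1f9 had r with Cwc22 from -0.08 to 0.09, the 58 around Gm42764 from -0.08 to 0.12 and the 22 around Gm42900 from -0.09 to 0.11, and no tested gene started within 1 Mb of Gm19757. The host genes Dpysl5 and Tgfbr3 had r of -0.02 and 0.03 with Cwc22, and 0.00322 and 0.04 with the follower inside each.

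**Figure D5:**
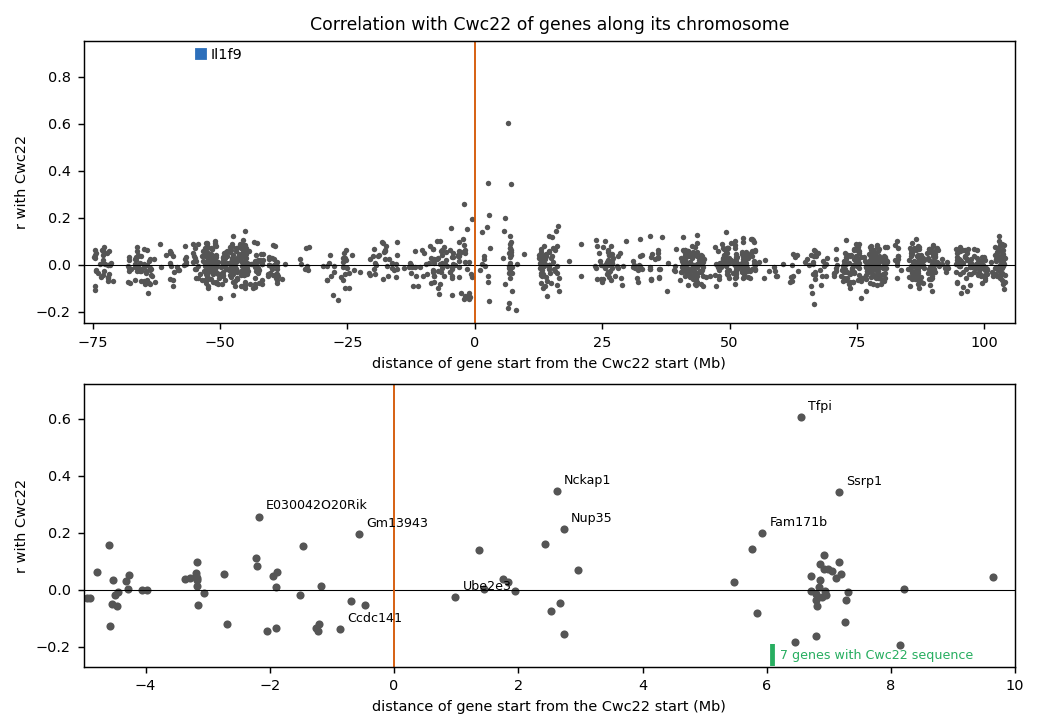
Pearson's r with Cwc22 of each gene tested on chromosome 2, against the distance of its start from that of Cwc22 (vertical line) in Mb, over the whole chromosome above and near Cwc22 below. Il1f9 (blue square) stands alone, 53.7 Mb away, Tfpi is the highest point near Cwc22, and green marks show the 7 predicted genes with Cwc22 sequence.

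On other chromosomes 8 genes reached an absolute r of 0.2, and 6 of them shared at least 25 words of 31 bases with a follower, as none of the 5 on chromosome 2 did. Gm15983 (chromosome 16, r = 0.64, medians 0.790 and 3.41 CPM in low and high animals) shares sequence with Il1f9 and Gm19757. Gm44873 (chromosome 7, r = 0.50, 2.55 and 4.96 CPM), Gm11261 (chromosome 4, r = 0.49, 1.05 and 3.15 CPM) and Gm43622 (chromosome 9, r = 0.32, 3.81 and 6.27 CPM) share it with both Gm42764 and Gm42900, and Gm14654 (X chromosome, r = 0.31, 0.535 and 1.01 CPM) with Gm42764 alone. Gm15758 (chromosome 8, r = 0.25) shares it with Gm42900. The other 2, which share none, were Gm16249 (chromosome 13, r = 0.40, medians 0.0303 and 0.143 CPM) and Gm5641 (chromosome 3, r = -0.26, 51.0 and 45.9 CPM). Within the low animals alone r of Gm5641 with Cwc22 was 0.28, and within the high ones 0.04. Its value below 0 was thus seen only over both clusters of animals together. In all, 50 tested genes shared as many words with a follower, of which 6 (12%) reached the threshold, and their median r was 0.0279.

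The genes most like each follower came from the same set. Il1f9 was followed by Gm15983 (r = 0.76), Tfpi (0.60) and Gm44873 (0.47), Gm42764 by Gm44873 (0.60), Gm43622 (0.60) and Gm15983 (0.55), Gm42900 by Gm15983 (0.69), Gm44873 (0.64) and Gm11261 (0.63), and Gm19757 by Gm15983 (0.64), Tfpi (0.56) and Gm11261 (0.49), each over all animals.

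Genes that work with the 2 coding members were compared with them by correlation. Of 18 genes of the exon junction complex and nonsense-mediated decay, r with Cwc22 ran from -0.05 (Smg5) to 0.09 (Upf3a, which binds the exon junction complex in decay), with a median of -0.00204, and Eif4a3 lay inside this range. Of 22 spliceosome partners it ran from -0.08 (Bcas2) to 0.14 (Snrnp200, the helicase that unwinds U4 from U6), and of 17 tested members of the interleukin-1 family and its receptors (28 listed) from -0.07 (Il1rn, the receptor antagonist) to 0.10 (Il18r1). With Il1f9 itself, r of the 17 ran from -0.03 (Traf6) to 0.12 (Il18r1), and was 0.04 for Il1rl2, which encodes the receptor of the Il1f9 protein. None of these genes reached an absolute r of 0.2 with Cwc22, and none of the 17 with Il1f9. In the 3 lists, 5, 4 and 4 genes were higher and 4, 7 and 6 lower in males by edgeR, where 55% of all genes passed, and generation was called in 1, 1 and 3, where 7.56% of all genes were called.

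Markers of other cell types were followed because Il1f9 is an epithelial cytokine. Of 10 keratinocyte markers 5 were tested, and their summed level was 8.53 to 235.7 CPM (median 14.97) in the low and 9.69 to 27.6 CPM (median 14.7) in the high animals, with r from -0.04 (Krtdap) to 0.00280 (Trp63). Of 8 neutrophil markers 4 were tested, with sums of 0.147 to 40.5 CPM and 0.126 to 3.95 CPM and r from -0.04 (S100a8) to 0.03 (Retnlg). The sums of the other lists overlapped likewise between low and high animals, and r with Cwc22 ran from -0.03 (Myh7) to 0.04 (Tnnt3) for 10 myofibre markers, from -0.05 (Adgre1) to 0.02 (C1qc) for 10 macrophage markers, from -0.11 (Lep) to 0.06 (Pck1) for 9 adipocyte markers and from -0.03 (Hba-a1) to 0.06 (Hba-a2) for 5 erythroid markers. The 5 Schwann cell markers had a median r of -0.05, and their summed level was 55.7 to 277.6 CPM (median 115.5) in the low and 75.4 to 184.4 CPM (median 94.3) in the high animals. No marker reached 0.2. Generation was called in 3 of the 5 keratinocyte, 3 of the 4 neutrophil, 5 of the macrophage, 3 of the adipocyte and 4 of the erythroid markers, and in 0 of the myofibre and Schwann cell markers by edgeR, beside 7.56% of all genes. The part of such cells in the generation differences of the 5 genes was not tested.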

How the data were processed

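The authors sequenced polyadenylated RNA in pairs of reads, and mapped both ends as single reads against the transcripts of the 8 founder strains. Expected counts per gene came from EMASE run by GBRS; the deposited expected counts are not normalised and count read ends. The authors also deposited a score, the variance stabilising transform of DESeq2 (version not given in the sources used here), and a table of gene positions, which is another deposited file in megabases (GRCm38). Versions of the aligner and counter are not given in the sources used here.

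Expected counts were rounded and tested with edgeR 4.0.16 in R 4.3.3 (filterByExpr with a minimum count of 10, TMM, quasi-likelihood F-test, Benjamini-Hochberg over 18823 genes, threshold 0.05), for sex with generation, for generation with sex, for their interaction, and for library run with both as covariates. A new run started after a gap of more than 3 library numbers. The p-values measure the spread between animals and treat animals as independent. Kinship, a random effect in the eQTL analysis of the study, was not fitted. The edgeR steps were tested on simulated counts with known sex differences and no generation difference, drawn with the same dispersion for every gene. Genes with separate high and low animals, the interaction, library runs, gaps and correlations were not simulated. Alternatives were DESeq2 1.42.0, limma 3.58.1 on the score, other scaling, filters and covariates, and leaving out libraries. Wave, a covariate of the study, is not in the labels and was not fitted.

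Correlations, gaps and shared words used Python 3.11.15, and alignments blastn 2.17.0 on GENCODE M21 transcripts; 99.2% of deposited genes had the start and end of that annotation. The members, the 3 pathway lists and the 7 marker lists were chosen with earlier results of these data known. Genes named besides the members were the 10 most correlated with Cwc22, the 3 most like each follower, the genes overlapping a member or starting within 1 Mb of it, and the extremes of each list, except for items that are not reported here. E030042O20Rik, Nup35, Gm15758, Eif4a3 and the copies of Cwc22 sequence were named after their values or sequences were seen.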

Additional observations from a re-analysis of the deposited data

How the results depend on the processing

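All but 19 of the values recomputed under another setting kept their direction and their side of the threshold, or stayed within 1.5 times for counts and inside the 95% interval of the main value for correlations. With limma on the deposited score, Gm19757 lost the sex call (-0.092, adjusted p = 0.103) and the generation call (range 0.20, a description as in the report). With the same setting its difference between library runs turned to -0.00339 (adjusted p = 0.975). The sex-by-generation interaction was called in 100 genes by edgeR, in 62 with a stricter filter, in 39 by DESeq2 and in 0 by limma (870 at an unadjusted p under 0.05). Without DO391, a library chosen after seeing the data, the sex difference of Cwc22 in generation 21 was 0.040. On log2 CPM, r with Cwc22 was 0.77 for Il1f9, 0.70 for Gm42764, 0.84 for Gm42900 and 0.78 for Gm19757, and Spearman's rho was 0.52, 0.40, 0.50 and 0.54. With at least 10% of libraries on each side of a gap, no gap at the main position was allowed, and 12.03% (Cwc22), 10.5% (Il1f9), 11.2% (Gm42764), 87.6% (Gm42900) and 16.5% (Gm19757) of animals lay above the widest step left. Stretches of 96 library numbers, also chosen after seeing the data, gave ranges between generations from 2.42 to 3.19 (log2) for Cwc22 and from 0.88 to 2.82 for the followers, which restate the known counts of high animals and support nothing. Within single stretches generation was called in 5 of 5 for Cwc22, in 3 for Il1f9 and Gm42900, and in 2 for Gm42764 and Gm19757. The 19 values above do not include these fits. No paired analysis was possible because each animal gave a single library, and replicate numbers are names in accession order. Low counts limit Il1f9 and Gm19757 in the low animals.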
